A study of Mus musculus with 12 samples.

Results

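The comparison described here sets the pituitary of wild-type mice 3 h after the start of restraint stress against the pituitary of wild-type control mice. It rests on 4 of the 12 arrays of the series, 2 in each group, chosen by their labelled genotype, treatment and time. The arrays are Illumina mouse bead arrays, on which each probe's signal is the mean brightness of the beads that carry it. The series holds 6 groups of 2 arrays, in which Crhr1 wild-type and Crhr1 knockout mice were each profiled as controls, 1 h and 3 h after stress. The wild-type 1 h arrays and the knockout control and 3 h arrays are used below only for comparison.

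Every mouse, controls included, received intraperitoneal metyrapone, at 150 mg/kg 12 h before and at 100 mg/kg directly before the stress. Restraint lasted 30 min, and the labels count 3 h from its start, while the design text says only that the time is after stress. No restraint is named for the controls. Blood was drawn from the orbital sinus between the second injection and the stress. Control mice were injected in the same way and killed 1 to 3 h later, so their time since injection covers a range and is not matched to 3 h. RNA was pooled and amplified in 1 linear round, and the array titles call the 2 arrays of a group technical replicates. The p-values therefore measure the spread between arrays, which may be technical, and not the spread between mice. Strain, sex, age and the number of mice per pool are not given in the sources used here. Each group sat at 1 position on both slides, so array position and group cannot be told apart.

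The pituitary corticotrope receives corticotropin-releasing hormone from the hypothalamus through the receptor CRHR1, which raises cAMP and releases adrenocorticotropic hormone, a product of the Pomc gene. The hormone drives glucocorticoid secretion from the adrenal cortex, and glucocorticoids feed back on the corticotrope. Metyrapone blocks the last step of corticosterone synthesis and so weakens that feedback. Immediate early genes such as Fos, Egr1 and Nr4a2 are transcribed within minutes of receptor stimulation in many cells, and their transcripts are usually short-lived.

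Between 10786 and 13506 of 46147 probes were detected (detection p-value under 0.01) on the 4 arrays. The 2 arrays of a group correlated at 0.967 in controls and 0.975 at 3 h over 11766 features, and 398 features in controls and 236 at 3 h differed by over 1 log2 unit between them. The tissue markers matched a pituitary: the transcripts of the hormone genes Pomc, Gh, Prl, Tshb, Lhb, Fshb and Cga and of Tbx19, a corticotrope and melanotrope transcription factor, were detected on 4 of 4 arrays. The posterior lobe hormone gene Oxt was detected on 4 of 4 arrays and Avp on 0 of 4. Of the 3 Crhr1 probes, 1 was detected on 4 of 6 wild-type and 0 of 6 knockout arrays; where the probes lie relative to the deletion is not given. The knockout 3 h arrays stood apart, with a correlation of 0.926 and only 6119 detected probes on the second, and they share the estimate of spread used in every test. The calls are given with and without them. The list counts below include them, and the main changes without them are given with the calls made without them.

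At 3 h, 27 of 11766 features, or 0.229%, differed from control in limma's moderated test, with a threshold of 0.05 on the p-value adjusted by Benjamini and Hochberg's method and of 1.5-fold on the size. A feature is the brightest detected probe of a gene, or an unnamed probe. Of these, 10 rose (0.085%) and 17 fell (0.144%), and 24 carry a gene symbol. Socs3, Serpina3n, Lcn2, Hif3a, Eprs, Fcer1g and Hbb-b2 rose. Nr4a2, Fosl2, Npas4, Crem, Hsph1, Dnajb1, Rasgrp1, Gpr83, Stk4, Enc1, Mest, Lbp, Fam13c, Togaram1, Csrp1, Txnl1 and Spink8 fell. All 27 moved in the same direction between the arrays numbered 1 and between those numbered 2, as did 7259 of all 11766 features. The 27 were selected on these same arrays and had no overlap between the groups. Their agreement therefore follows from the selection and is not a replication. The list of genes was sensitive to single arrays: leaving out 1 of the 12 left between 3 and 92 calls. Spink8, Txnl1 and Socs3 passed in each of those 12 fits, Eprs in 8, Enc1 and Hif3a in 6, Serpina3n in 5 and the other 17 in 2 or 4. Among all features, 1406 had an unadjusted p under 0.05.

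**Figure D1:**
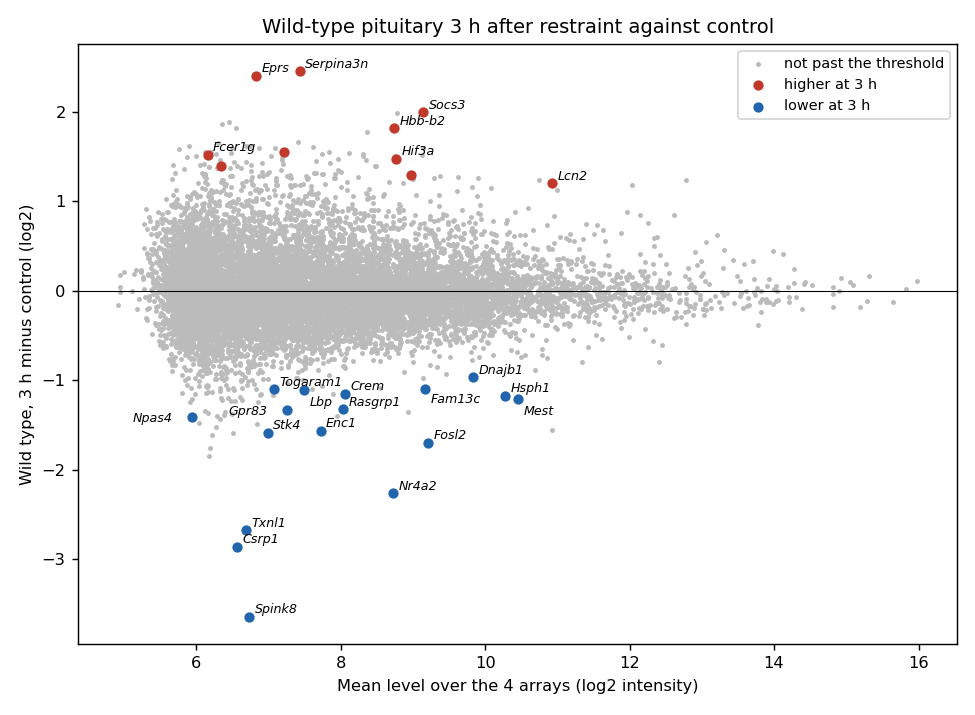
Each point is 1 of 11766 features, with its mean log2 normalized intensity over the 4 arrays on the horizontal axis and its 3 h minus control difference in log2 units on the vertical axis; the called features are coloured and the named ones labelled. Txnl1, Csrp1 and Spink8 lie farthest below zero among the called genes, and Serpina3n and Eprs farthest above it.

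Immediate early genes and targets of cAMP signalling were among the genes that fell. Of 21 measured genes of a list of 30 immediate early genes, 3 fell (Nr4a2, Fosl2 and Npas4) and 0 rose, against 0.144% of all features falling and 0.085% rising. With the slide (replicate number) as a block, 2 fell, Nr4a2 and Egr1, and Fosl2 and Npas4 did not pass. The list's median difference was -0.44, against -0.02 over all features. Both 3 h arrays lay below both control arrays in 11 of the 21, against 26.2% of all features, and above them in 3, against 21.6%; in either direction 47.8% of all features did not overlap. Of 16 measured genes of a list of 25 cAMP and CREB targets, 2 fell (Nr4a2 and Crem) and 0 rose, with a median of -0.33. Nr4a2 and Fos stand in both lists. Nr4a1 did not pass the detection filter.

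Nr4a2 encodes the orphan nuclear receptor NURR1, which in corticotrope cells binds elements of the Pomc promoter. Its log2 level was 9.93 and 9.79 on the control arrays, 10.87 and 11.00 at 1 h, and 7.39 and 7.80 at 3 h. Both 3 h arrays lay below both control arrays and both 1 h arrays lay above them. The 3 h minus control difference was -2.26 ± 0.34 (standard error, 2 arrays in each group; adjusted p = 0.0435), and a further Nr4a2 probe gave -1.96. Against 1 h the difference was -3.34 (adjusted p = 0.00476).

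Npas4, an activity-dependent transcription factor best known from neurons, read 6.77 and 6.52 in controls, 8.26 and 8.35 at 1 h and 5.35 and 5.12 at 3 h. It was high on both 1 h arrays and not detected on either 3 h array. The 3 h level was at least 1.5-fold lower than control (fitted difference -1.41 ± 0.21, adjusted p = 0.0387), and the fall from 1 h was -3.07 in the fit (adjusted p = 7.06e-04). At 1 h Npas4 was 1.66 above control (adjusted p = 0.0311). Fosl2, which encodes a Fos-family subunit of AP-1, read 10.27 and 9.86 in controls, 10.61 and 10.18 at 1 h and 8.22 and 8.5 at 3 h. Its 3 h arrays were the lowest of the 6 and did not overlap the others. The difference was -1.70 ± 0.24 from control (adjusted p = 0.0341) and -2.04 from 1 h (adjusted p = 0.0106).

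Crem, the cAMP-responsive element modulator, which also gives rise to the repressor ICER, read 8.56 and 8.72 in controls, 8.19 and 8.27 at 1 h and 7.5 and 7.47 at 3 h. Its values were ordered control above 1 h above 3 h with no overlap. The 3 h minus control difference was -1.15 ± 0.16 (adjusted p = 0.0341), and the step from 1 h, -0.74, did not pass (adjusted p = 0.0826).

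Several other immediate early genes lay lower at 3 h without passing the test against control. Egr1, a zinc-finger transcription factor, read 11.89 and 11.51 in controls, 12.47 and 12.52 at 1 h and 10.33 and 9.96 at 3 h. The groups did not overlap, and the difference from control was -1.56 ± 0.24 with an adjusted p = 0.0532. Egr3, its relative, differed by -1.48 ± 0.28 (adjusted p = 0.0890) and was not detected on the 3 h arrays. Fos, an AP-1 subunit, read 9.81 and 8.35 in controls, 11.09 and 11.14 at 1 h and 8.09 and 7.89 at 3 h. Its control arrays were far apart, and the difference from control was -1.09 ± 0.40 (adjusted p = 0.333). Dusp1, a MAP kinase phosphatase, differed by -0.75 ± 0.20 (adjusted p = 0.215).

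Against the 1 h arrays, 9 of the 21 immediate early genes fell and 0 rose, with a list median of -1.25 and -0.02 over all features. Over all features 64, or 0.544%, were called between 3 h and 1 h, of which 42 fell and 22 rose. Fos fell by 3.12 (adjusted p = 0.0162) and Dusp1 fell by 1.64 (adjusted p = 0.0145). Egr3 and Egr1 also fell, with differences of -2.70 and -2.35 (both adjusted p = 0.00476). The 3 h arrays are shared by this comparison and the one with control.

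**Figure D2:**
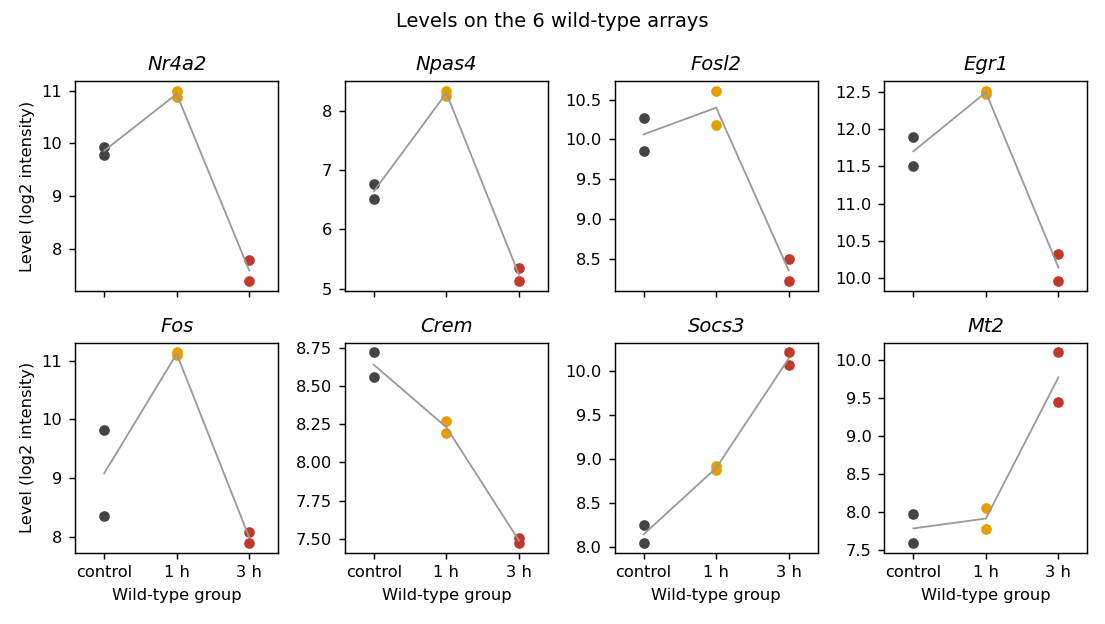
Points are the log2 normalized intensities of single wild-type arrays in controls, at 1 h and at 3 h, and lines join the group means. Nr4a2, Npas4 and Fos are highest on the 1 h arrays and lowest on the 3 h arrays, Crem is lowest at 3 h, and Socs3 and Mt2 are highest at 3 h.

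The promoters of Nr4a2 and Npas4 are shown because these 2 had the most negative differences between 3 h and 1 h among the called genes, and both hold the half-site of the cAMP response element. The sequences are RefSeq's, build GRCm38.p6, 250 bases before to 50 after the annotated start, written 5′ to 3′ on the minus strand. Capitals mark TGACG or its reverse complement CGTCA. Nr4a2 is at chr2:57123954-57124253 and holds 4 matches; Npas4 is at chr19:4989922-4990221 and holds 2.
Nr4a2: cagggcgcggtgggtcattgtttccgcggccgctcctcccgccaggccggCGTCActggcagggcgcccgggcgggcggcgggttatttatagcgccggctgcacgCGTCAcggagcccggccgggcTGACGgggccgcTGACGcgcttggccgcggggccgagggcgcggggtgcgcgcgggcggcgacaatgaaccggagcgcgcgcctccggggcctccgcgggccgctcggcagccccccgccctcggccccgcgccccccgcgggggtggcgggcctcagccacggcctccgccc
Npas4: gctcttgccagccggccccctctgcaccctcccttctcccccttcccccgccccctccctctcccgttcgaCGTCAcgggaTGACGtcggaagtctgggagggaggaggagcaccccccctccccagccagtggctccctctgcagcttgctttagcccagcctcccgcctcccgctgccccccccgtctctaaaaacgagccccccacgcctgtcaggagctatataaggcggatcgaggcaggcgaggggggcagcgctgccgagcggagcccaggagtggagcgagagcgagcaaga
A promoter entry existed for 18 of the 24 named called genes. The half-site TGACG, searched on both strands, was present in 6 of 12 genes that fell (Nr4a2, Npas4, Dnajb1, Fam13c, Togaram1 and Gpr83) and in 1 of 6 that rose (Eprs), against 23.0% of all 27025 genes with a promoter. The full palindrome TGACGTCA was in 0 of the 18, against 2.03% of all genes, and the AP-1 motif TGANTCA in 0, against 8.97%. A match describes letters and is not a binding site.

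Cytokine-response, acute-phase and glucocorticoid-target genes were 4 of the 7 named genes that rose. Of 22 measured genes of a list of 32 cytokine and acute-phase genes, 3 rose (Socs3, Serpina3n and Lcn2) and 0 fell, against 0.085% of all features rising, and the median difference was 0.32. Lbp, an acute-phase gene in liver that fell, is not in this list, which was chosen with earlier results known, so the count of 0 falls holds for the list only. Of 25 measured glucocorticoid targets in a list of 30, 2 rose (Lcn2 and Hif3a) and 0 fell, also with a median of 0.32. Lcn2 stands in both lists.

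Socs3 encodes a suppressor of cytokine signalling that is induced through STAT3 and inhibits JAK kinases. Its log2 level was 8.25 and 8.04 in controls, 8.88 and 8.92 at 1 h and 10.21 and 10.07 at 3 h. In raw brightness the control arrays gave 340 and 515 units and the 3 h arrays 1245 and 1452. The groups were ordered control, 1 h, 3 h with no overlap. The rise from control was 1.99 ± 0.16 (adjusted p = 0.00193) and the rise from 1 h was 1.24 (adjusted p = 0.0162).

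Serpina3n, a serine protease inhibitor of the acute phase, read 6.70 and 5.70 in controls, 7.15 and 7.29 at 1 h and 8.49 and 8.82 at 3 h. It was detected on 1 of 2 control arrays, and both 3 h arrays lay above the other 4. The difference was 2.45 ± 0.29 (adjusted p = 0.0249), and it ranged from 1.95 to 2.94 when single arrays were left out. Lcn2, lipocalin 2, an iron-siderophore binding protein, read 10.32 and 10.34 in controls, 11.01 and 11.10 at 1 h and 11.41 and 11.65 at 3 h. The control arrays were the lowest. The rise was 1.20 ± 0.16 (adjusted p = 0.0324), and the difference from 1 h, 0.47, did not pass (adjusted p = 0.235).

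Hif3a, a subunit of the hypoxia-inducible factor family and a known glucocorticoid target, read 8.07 and 8.0 in controls, 8.33 and 8.37 at 1 h and 9.60 and 9.41 at 3 h. The 3 h arrays did not overlap the others. The rise was 1.47 ± 0.16 from control (adjusted p = 0.0163) and 1.15 from 1 h (adjusted p = 0.0292), but a second detected Hif3a probe gave -0.27. Hif3a was the 1 gene that rose among 11 measured hypoxia-response genes, and 0 fell.

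Other classical glucocorticoid targets did not pass the test. Fkbp5, a co-chaperone of the glucocorticoid receptor, differed by 0.13 (adjusted p = 0.890), the kinase gene Sgk1 by 0.01 and the clock gene Per1 by -0.55 (adjusted p = 0.594). Pdk4, pyruvate dehydrogenase kinase, read 7.17 and 6.78 in controls and 8.34 and 8.66 at 3 h, without overlap, and its difference of 1.52 ± 0.31 did not pass (adjusted p = 0.109). Tsc22d3 and the receptor gene Nr3c1 did not pass the detection filter.

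The metallothioneins Mt1 and Mt2, metal-binding proteins whose genes respond to both metals and glucocorticoids, lay just outside the threshold. Mt2 read 7.98 and 7.59 in controls, 8.05 and 7.79 at 1 h and 10.10 and 9.45 at 3 h. Both 3 h arrays lay well above the other 4. The difference from control was 1.98 ± 0.31 (adjusted p = 0.0536), and the rise from 1 h was 1.85 (adjusted p = 0.0477). Mt1 differed from control by 1.24 ± 0.19 (adjusted p = 0.0532). Within the cytokine list, the NF-kappaB inhibitor gene Nfkbia read 5.83 and 7.08 in controls and 8.76 and 7.07 at 3 h, so the groups overlapped (difference 1.46 ± 0.64, adjusted p = 0.411).

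The Socs3 promoter is shown because Socs3 rose in each fit that left out an array, and it holds a STAT-type motif, TTCNNNGAA, in capitals. It is at chr11:117969317-117969616 of GRCm38.p6, minus strand.
Socs3: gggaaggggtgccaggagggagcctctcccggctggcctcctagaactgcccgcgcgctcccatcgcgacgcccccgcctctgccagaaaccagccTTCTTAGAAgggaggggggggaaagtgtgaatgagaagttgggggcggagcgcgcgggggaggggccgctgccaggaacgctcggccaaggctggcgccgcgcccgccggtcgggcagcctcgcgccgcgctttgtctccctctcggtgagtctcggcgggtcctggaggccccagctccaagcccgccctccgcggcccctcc
The same motif was in 1 of 6 genes that rose and 2 of 12 that fell (Togaram1 and Rasgrp1), against 9.55% of all genes. TGTTCT, the half-site of the glucocorticoid response element, was in 1 that rose (Serpina3n) and 2 that fell (Dnajb1 and Fam13c), against 21.3% of all genes.

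Chaperone genes of the heat shock response fell in part. Of 17 measured genes of a list of 22, 2 fell (Hsph1 and Dnajb1) and 0 rose, against 0.144% of all features falling and 0.085% rising, and the list's median was -0.11. Hsph1, an HSP110 chaperone, read 10.77 and 10.96 in controls, 10.87 and 10.91 at 1 h and 9.84 and 9.54 at 3 h. The control and 1 h arrays overlapped and the 3 h arrays lay about 1 log2 unit below them. The fall was -1.18 ± 0.17 from control (adjusted p = 0.0391) and -1.20 from 1 h (adjusted p = 0.0307).

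Dnajb1, an HSP40 co-chaperone, read 10.37 and 10.26 in controls, 10.25 and 10.22 at 1 h and 9.25 and 9.44 at 3 h. As with Hsph1, only the 3 h arrays were low among these 6. The difference was -0.97 ± 0.14 (adjusted p = 0.0387). Chordc1, an HSP90-binding co-chaperone, read 9.67 and 9.54 in controls and 8.33 and 8.18 at 3 h without overlap, and its difference of -1.35 ± 0.26 did not pass (adjusted p = 0.10). Hsp90aa1, the inducible HSP90, differed by 0.93 ± 0.37 (adjusted p = 0.371).

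The Hsph1 promoter at chr5:149636287-149636586 of GRCm38.p6, minus strand, is shown because it was the 1 promoter of the 18 genes with a heat shock element, searched as GAA, NN, TTC, NN and GAA in a row or its reverse complement, and present in 0.662% of all genes. The match, in capitals, begins downstream of the annotated start.
Hsph1: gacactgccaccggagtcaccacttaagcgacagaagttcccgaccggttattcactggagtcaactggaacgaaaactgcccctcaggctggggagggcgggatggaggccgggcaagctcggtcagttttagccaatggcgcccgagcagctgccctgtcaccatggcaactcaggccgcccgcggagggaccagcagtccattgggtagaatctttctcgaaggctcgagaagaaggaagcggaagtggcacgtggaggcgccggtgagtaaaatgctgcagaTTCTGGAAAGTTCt

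In a list of 23 receptors and Ras-pathway genes, 14 were measured, 3 fell (Rasgrp1, Gpr83 and Stk4) and 0 rose, with a median of -0.41. This mixed list was drawn up with the called genes known, so its count and median describe that choice. Rasgrp1, an exchange factor that activates Ras in response to diacylglycerol, read 8.74 and 8.66 in controls, 9.16 and 9.30 at 1 h and 7.31 and 7.43 at 3 h. The 1 h arrays were highest and the 3 h arrays lowest. The fall was -1.33 ± 0.16 from control (adjusted p = 0.0278) and -1.85 from 1 h (adjusted p = 0.00290). A second probe gave -0.11, but it was detected on 0 of 2 control and 0 of 2 3 h arrays and on 3 of all 12.

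Gpr83, a G-protein-coupled receptor whose transcript was first described as glucocorticoid-regulated in mouse T cells, read 7.89 and 7.94 in controls, 7.91 and 7.83 at 1 h and 6.42 and 6.75 at 3 h. Control and 1 h arrays overlapped and the 3 h arrays were low. The difference was -1.33 ± 0.19 (adjusted p = 0.0341), while a second probe gave -0.21. Stk4, the Hippo-pathway kinase MST1, read 7.74 and 7.82 in controls, 7.38 and 7.49 at 1 h and 6.41 and 5.97 at 3 h, where it was detected on 1 of 2 arrays. The groups did not overlap, and the difference was -1.59 ± 0.22 (adjusted p = 0.0341). Enc1, an actin-binding kelch protein, read 8.53 and 8.48 in controls, 8.26 and 8.36 at 1 h and 6.78 and 7.10 at 3 h. Its 3 h arrays were clearly the lowest, by -1.56 ± 0.17 against control (adjusted p = 0.0163).

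Spink8, a Kazal-type serine protease inhibitor, had the most negative difference. It read 8.45 and 8.65 in controls, 5.58 and 5.56 at 1 h and 4.94 and 4.88 at 3 h. It was detected in controls and on none of the 4 arrays after stress. The 3 h level was at least 5.62-fold lower than control (fitted difference -3.64 ± 0.20, adjusted p = 2.67e-04), and at 1 h the fitted difference was already -2.98 (adjusted p = 7.65e-04). Txnl1, a thioredoxin-like protein that associates with the proteasome, read 8.05 and 7.99 in controls, 7.51 and 7.37 at 1 h and 5.57 and 5.12 at 3 h, where it was not detected. Its fall was at least 3.89-fold (fitted difference -2.68 ± 0.18, adjusted p = 8.36e-04). Such bounds set an undetected array to the lowest signal of a detected probe on it, or to its own value where that was higher.

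Csrp1, a LIM-domain protein of the cytoskeleton, read 8.11 and 7.87 in controls, 6.98 and 6.77 at 1 h and 5.58 and 4.67 at 3 h, where it was not detected. The fall was at least 3.80-fold (fitted difference -2.86 ± 0.40, adjusted p = 0.0341). Mest, an imprinted gene of the alpha/beta hydrolase family, read 11.18 and 10.95 in controls, 11.59 and 11.61 at 1 h and 9.78 and 9.92 at 3 h. Its 1 h arrays were highest and its 3 h arrays lowest, and the differences were -1.21 ± 0.15 from control (adjusted p = 0.0286) and -1.75 from 1 h (adjusted p = 0.00290). A second Mest probe, detected on 2 of 2 control and 1 of 2 3 h arrays, gave -0.42 from control.

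Lbp, the lipopolysaccharide-binding protein, read 7.95 and 8.15 in controls, 8.22 and 8.31 at 1 h and 7.06 and 6.81 at 3 h, and fell by 1.11 ± 0.17 (adjusted p = 0.0471). Its direction was opposite to that of Serpina3n and Lcn2. Fam13c fell by 1.10 ± 0.16 (adjusted p = 0.0373), and Togaram1, a microtubule regulator of cilia, by 1.10 ± 0.16 (adjusted p = 0.0391). Further Fam13c probes that passed the detection filter gave -0.16 and -0.17, and neither was detected on the 3 h arrays. Eprs, the glutamyl-prolyl-tRNA synthetase, read 5.64 and 5.60 in controls, 6.96 and 6.85 at 1 h and 8.05 and 8.0 at 3 h, and was not detected in controls. It was at least 3.50-fold higher at 3 h than in controls (fitted difference 2.41 ± 0.22, adjusted p = 0.00532), while a second Eprs probe was undetected on all 12 arrays. It was the 1 of 14 measured tRNA synthetase genes that rose, and 0 fell.

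**Figure D3:**
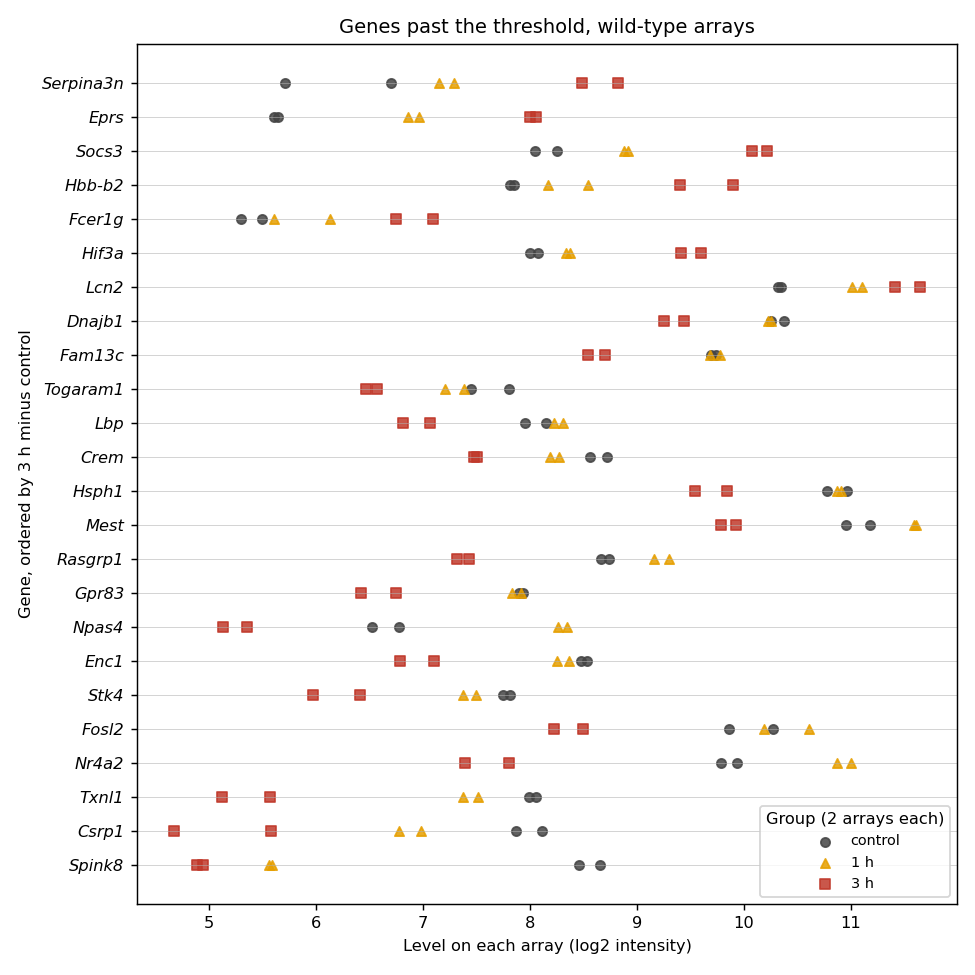
Points are log2 normalized intensities of the 24 named called genes on single wild-type arrays, coloured by group (control, 1 h and 3 h, 2 arrays each). In each gene the 3 h points lie to one side of both control points, and Nr4a2, Npas4, Mest, Lbp and Rasgrp1 have their 1 h points on the opposite side.

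Transcripts of blood and immune cells were also among those that rose. In bulk tissue more cells of a type and more RNA per cell cannot be told apart. Hbb-b2, a beta globin, read 7.81 and 7.85 in controls, 8.17 and 8.54 at 1 h and 9.89 and 9.40 at 3 h, and rose by 1.82 ± 0.25 (adjusted p = 0.0341). The other red-cell genes did not do the same: Hba-a1 differed by -0.09, Hbb-bs by -0.02, Alas2 by -0.35 and Hbb-bt by -1.59 ± 0.44 (adjusted p = 0.221). Globin genes are near-identical, so a probe may also report a relative. The summed level of the 6 measured red-cell genes was 7907 and 7988 normalized units in controls and 7938 and 8291 at 3 h.

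Fcer1g, the Fc receptor gamma chain of macrophages and mast cells, read 5.49 and 5.30 in controls, where it was not detected, 6.13 and 5.61 at 1 h and 6.75 and 7.09 at 3 h. It was at least 1.62-fold higher at 3 h (fitted difference 1.52 ± 0.21, adjusted p = 0.0341). Among 16 measured macrophage and leukocyte genes of 20, 1 rose and 0 fell, with a median of 0.27 and 12 of 16 positive against 47.5% of all features. Their summed level was 2371 and 2448 in controls and 3184 and 3025 at 3 h. The pan-leukocyte gene Ptprc and Itgam did not pass the detection filter. H2-Aa, a class II antigen gene, read 6.78 and 7.90 in controls and 9.16 and 8.60 at 3 h (difference 1.54, adjusted p = 0.284), and Ctss differed by 0.95. Aif1, another gene of this list, went the other way at -0.74. It was detected on 1 of 2 control and 0 of 2 3 h arrays.

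All 7 measured folliculostellate and stem-cell genes had positive differences, against 47.5% of all features, with a median of 0.63, but 0 passed the test. Of the 7, 5 were detected on all 4 arrays. Sox9, Aldh1a1 and Cdh1 differed by 0.81, 0.81 and 0.77. Cdh1 was detected on 0 of 2 control arrays, 1 of 2 at 3 h and 2 of all 12, so its value rests partly on background readings. The summed level of the 7 genes was 1743 and 1535 in controls and 2249 and 2521 at 3 h, and S100b, Vim, Gfap and Anxa1 did not pass the detection filter. Endothelial and pericyte genes summed to 2738 and 2383 in controls and 2973 and 3011 at 3 h, with 0 of 13 called, and Kdr and Vwf did not pass the filter. Posterior-lobe and neural genes summed to 1904 and 1708 in controls and 1587 and 1812 at 3 h, with 0 of 7 called. The part of these cell types in the differences of the genes above was not tested.

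The hormone genes themselves did not pass. Pomc read 15.83 and 15.59 in controls and 15.59 on both 3 h arrays, a difference of -0.12 ± 0.14 (adjusted p = 0.776). It lies among the brightest probes, where quantile normalization sets values by rank. Its raw brightness was 51204 and 59033 units in controls and 39564 and 51642 at 3 h. The raw signal was thus lower at 3 h within each replicate number, and the normalized values do not settle whether Pomc fell. Among 9 measured corticotrope and melanotrope genes 0 were called, with a median of -0.09. The vasopressin receptor gene Avpr1b differed by -0.17, Tbx19 by 0.05 and the Crhr1 probe used in the fit by -0.50 ± 0.46 (adjusted p = 0.703). That Crhr1 probe was detected on only 1 of 6 wild-type and 1 of 6 knockout arrays, so its value is near background. The Crhr1 probe detected on 4 of 6 wild-type and 0 of 6 knockout arrays gave 0.04. Tshb, the beta subunit of thyroid-stimulating hormone, read 12.85 and 12.77 in controls and 12.04 and 11.98 at 3 h. The groups did not overlap, and its difference of -0.80 ± 0.18 did not pass (adjusted p = 0.147). For the other hormone cells 0 of 12 measured genes were called (median -0.03), and for secretory granule genes 0 of 16 (median -0.01).

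The remaining lists had few or no calls. For the unfolded protein response 0 of 15 measured genes were called, for MAPK feedback 0 of 11 (median -0.14), for the circadian clock 0 of 13 (median 0.27) and for ribosomal proteins 0 of 19 (median -0.01). Of 13 measured cholesterol synthesis genes 0 were called, with a median of 0.31; Msmo1, a sterol methyl oxidase, read 9.90 and 9.91 in controls and 10.59 and 10.73 at 3 h (difference 0.75 ± 0.14, adjusted p = 0.0800). Of 16 metal and redox genes, 1 fell (Txnl1) and 0 rose, with a median of 0.14. Hspa5, the endoplasmic reticulum chaperone BiP, read 7.21 and 8.77 in controls and 10.07 and 8.93 at 3 h, with control arrays far apart (difference 1.51 ± 0.67, adjusted p = 0.419).

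The response of the Crhr1 knockout pools was set beside that of wild type by testing whether the 3 h minus control difference itself differed between genotypes. For the knockout control and 3 h arrays the source field names death at 1 h, against their titles, and the titles were followed. Over all features 20, or 0.17%, differed between genotypes. Among the 24 named called genes, Rasgrp1, Enc1 and Csrp1 passed. Rasgrp1 read 8.5 and 8.47 in knockout controls and 9.22 and 9.18 at 3 h, so the knockout difference was 0.72 against -1.33 in wild type. The wild-type minus knockout response was -2.04 ± 0.23 (adjusted p = 0.0190).

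Enc1 read 8.48 and 8.19 in knockout controls and 8.54 and 8.63 at 3 h, and its responses differed by -1.82 ± 0.24 (adjusted p = 0.0351). Csrp1 read 5.06 and 5.07 in knockout controls and 6.93 and 6.02 at 3 h. It was detected on 0 of 2 knockout control, 1 of 2 knockout 3 h and 0 of 2 wild-type 3 h arrays, so its fitted response difference of -4.27 (adjusted p = 0.0351) was built partly from background readings and its size is not settled. Fos, which was not called in wild type, read 6.64 and 6.20 in knockout controls, where it was detected on 1 of 2 arrays, and 9.45 and 9.57 at 3 h. Its difference was 3.10 in knockouts against -1.09 in wild type, and the responses differed by -4.18 ± 0.57 (adjusted p = 0.0367). Without the second knockout 3 h array Rasgrp1 and Csrp1 still passed (-2.08 and -4.88), while Enc1 (-1.80, adjusted p = 0.0565) and Fos (-4.18, adjusted p = 0.0652) did not. When each of the 12 arrays was left out in turn, Rasgrp1 and Csrp1 passed in 4 fits, Enc1 in 3 and Fos in 5.

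For the other called genes a difference between genotypes did not pass, which does not show that the responses were alike. Socs3 read 8.30 and 8.31 in knockout controls and 10.02 and 9.90 at 3 h, a difference of 1.66 against 1.99 in wild type (response difference 0.34 ± 0.22, adjusted p = 0.453). Txnl1 differed by -2.89 in knockouts against -2.68 in the fit, and was undetected at 3 h in both genotypes. Crem differed by -1.04 in knockouts against -1.15, Fosl2 by -1.14 against -1.70, Nr4a2 by -1.64 against -2.26 and Lcn2 by 0.85 against 1.20. Hbb-b2 differed by -0.45 in knockouts against 1.82, Mest by -0.01 against -1.21, and Lbp by 0.01 against -1.11, with adjusted p for the response difference of 0.0503, 0.063 and 0.0765. Npas4 was detected on 0 of 2 knockout control and 0 of 2 knockout 3 h arrays, so a fall could not have been seen there.

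**Figure D4:**
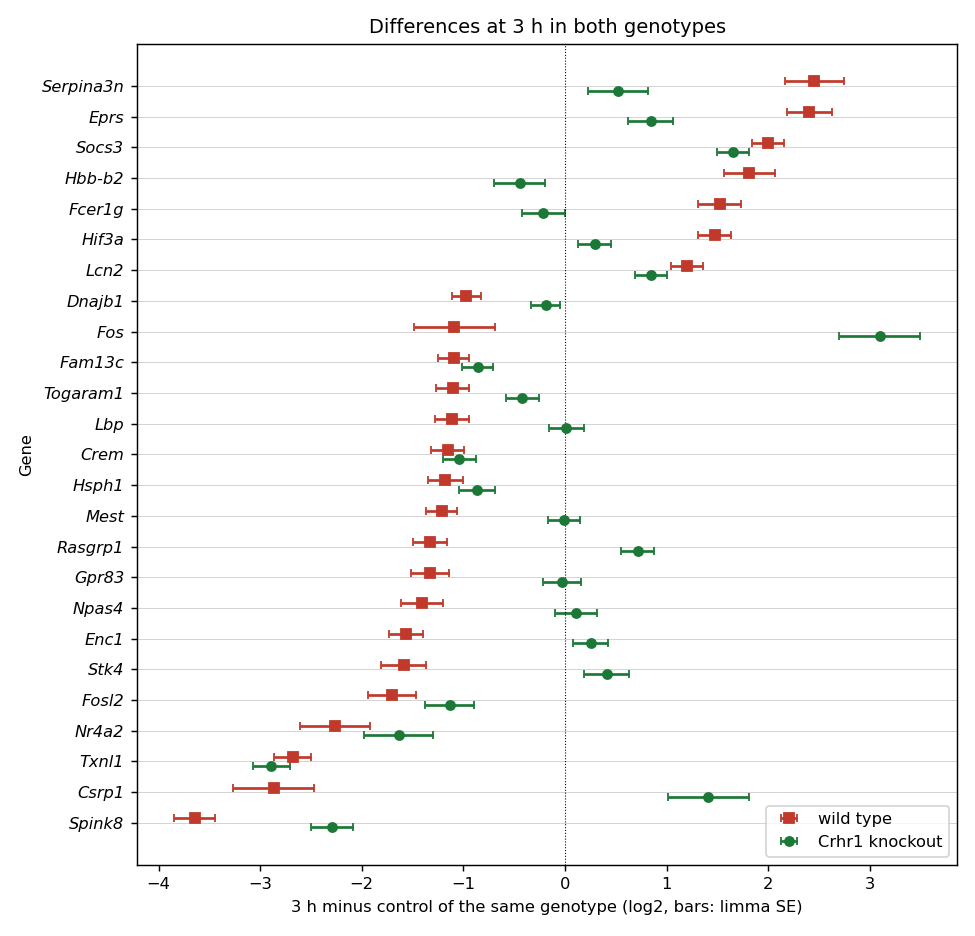
Points are 3 h minus control differences in log2 units with limma standard errors for the 24 named called genes and Fos, in wild type and in knockout. Socs3, Txnl1, Crem and Nr4a2 have the same sign in both genotypes, and Rasgrp1, Enc1, Csrp1 and Fos lie on opposite sides of zero; Csrp1 and Npas4 were not detected on the knockout control arrays, and Eprs and Fcer1g on neither genotype's control arrays.

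Without the 2 knockout 3 h arrays, the wild-type comparison called 92 of 11508 features, or 0.799%, with 49 rising and 43 falling, and all 27 features above were among them. The 65 additional features included Mt2 (2.00, adjusted p = 0.0129), Mt1 (1.24, adjusted p = 0.0263) and Egr1 (-1.56, adjusted p = 0.0228). Some further genes among them were picked after their values were seen. These were Gper1, a G-protein-coupled oestrogen receptor (-1.43, adjusted p = 0.00807), Gdnf, a neurotrophic factor (-1.82, adjusted p = 0.0404), and Cirbp, a cold-inducible RNA-binding protein (1.28, adjusted p = 0.0381). Angptl4, a lipoprotein lipase inhibitor and glucocorticoid target, was another (1.46, adjusted p = 0.0471). Without these arrays 5 immediate early genes fell instead of 3, and 5 glucocorticoid targets rose instead of 2. In the metal and redox list 2 rose instead of 0, and in the cholesterol list 1 instead of 0. Counts for the cytokine, cAMP and heat shock lists did not change in that fit. With only the 6 wild-type arrays normalized and fitted, these lists had 1 call each: Socs3, Nr4a2 and Chordc1. There the receptor list also had 1 (Rasgrp1), the glucocorticoid list 1 (Hif3a), and the red-cell and macrophage lists 0. The immediate early list had 3 (Arc, Npas4 and Nr4a2). With median centring and the knockout arrays kept, 0 glucocorticoid targets and 0 heat shock genes were called. In that setting 2 immediate early genes fell and 2 cytokine genes rose.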

How the data were processed

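Pituitary RNA was profiled on 12 bead arrays. Per the file headers, the authors deposited raw mean bead intensity, detection p-values, bead standard errors and bead counts for each array, as BeadStudio wrote them, per the submitters' processing notes (no version given). The authors' deposited value table was used only as an alternative. No genome build for the probes is named in the labels or headers.

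From the intensities, limma 3.58.1 in R 4.3.3 corrected background by normexp from the detection p-values (offset 16) and quantile-normalized log2 values over 12 arrays. Of 46147 probes, 14 absent from the authors' value table were left out; 29542 had 1 gene symbol, 11 several and 16580 none. Probes detected at p under 0.01 on at least 2 of 12 arrays were kept (14405), and the probe with the highest mean stood for each symbol, leaving 11766 features, 8592 of them named. One term per group was fitted with lmFit and eBayes, and a call needed a Benjamini-Hochberg adjusted p under 0.05 and 1.5-fold. The residual degrees of freedom were 6. The main fit was tested on simulated data with changes planted in the wild-type 3 h group, for the comparison with control only. For a probe undetected on both arrays of a group, "at least" folds compare group means of normalized log2 values, with each undetected array at the higher of its own value and the lowest signal of a detected probe.

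Replicate 1 of every group was on one slide and replicate 2 on the other. The correlation of deviations between same-numbered wild-type 3 h and control arrays was -0.12, so the numbers were not taken to pair the samples. The wild-type 1 h arrays were not part of that check, and it does not exclude a slide effect. Some genes, given at the end, were low on replicate 1 of both the control and the 1 h group. Genes named are the called genes with a symbol, up to 4 members of each of 22 lists (409 genes) with the largest differences, and a short set of stress-axis genes. Members and lists were chosen with earlier results of these data known. Promoter sequences are RefSeq's. Alternatives covered background, normalization, filters, probe choice, array weights, the slide as a block, the arrays fitted and leaving out each array.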

Additional observations from a re-analysis of the deposited data

Results flagged for a closer look

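Of the 20 features whose 3 h response differed between wild-type and knockout pools, 4 are among the genes described here. The wild-type minus knockout response was -2.04 ± 0.23 log2 for Rasgrp1 (limma, adjusted p = 0.0190), -1.82 ± 0.24 for Enc1 (adjusted p = 0.0351), -4.27 for Csrp1 (adjusted p = 0.0351) and -4.18 ± 0.57 for Fos (adjusted p = 0.0367). Csrp1 was not detected on the wild-type 3 h or knockout control arrays, so its value is partly a difference of background readings. These calls were often lost when an array was left out. When each of the 12 arrays was left out in turn, Rasgrp1 passed in 4 fits (adjusted p 0.0060 to 0.143), Enc1 in 3 (0.0077 to 0.197), Csrp1 in 4 (0.0075 to 0.193) and Fos in 5 (0.0042 to 0.206). The values stayed negative, from -2.10 to -2.0 for Rasgrp1, -1.97 to -1.66 for Enc1, -4.88 to -3.80 for Csrp1 and -4.90 to -3.44 for Fos. With median centring Rasgrp1 (-1.65, adjusted p = 0.231) and Enc1 (adjusted p = 0.278) did not pass, and Enc1, Csrp1 and Fos did not pass with no detection filter, with array weights or from the authors' value table.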

How the results depend on the processing

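The 3 h calls against control (27, of which 10 higher and 17 lower) depended on the fit. The count was 1 with only the 4 arrays fitted, 15 with median centring (10 higher, 5 lower; median of all features 0.08), 67 on raw log2 values (34 and 33), 42 with offset 50 (21 and 21), 11 with no detection filter (6 and 5), 89 with array weights (47 and 42), 10 from the authors' value table (5 and 5), and 92 without both knockout 3 h arrays (49 and 43). The last setting was chosen after seeing the data. With 6 wild-type arrays it was 23 (13 higher, 10 lower), of which 12 were shared. Leaving out each array gave 3 to 92. For 3 h against 1 h (64) the same settings gave 25, 167, 147, 24, 455, 39 and 253 calls in the order median centring, raw log2, offset 50, no filter, weights, table and without the knockout arrays, 143 with detection on both arrays, and 1 to 270 when leaving out each array. It was 1 without wild-type 1 h replicate 2. For the response difference (20) they gave 12, 370, 159, 8, 7 and 9 in the order median centring, raw log2, offset 50, no filter, weights and table, 103 with detection on both arrays, and 4 to 1822 when leaving out each array. With the replicate number (slide) as a block, the replicate block gave 27 calls against control (12 higher, 15 lower; 22 shared), 103 against 1 h and 50 for the response difference; Fcer1g, Fosl2, Npas4, Lbp and Togaram1 no longer passed and Egr1, Mt1 and Mt2 did. A crossed replicate block, added after seeing the data, gave 14. None of the 24 named called genes changed direction under any setting in which directions were compared. The crossed block and the fit of all probes, without 1 probe chosen per gene, were not part of that comparison. Leaving the crossed block aside, Spink8 passed under each setting, and Socs3 and Txnl1 under each except the fit of 4 arrays. Crhr1, at -0.50 in the main setting, was 0.055 with 6 wild-type arrays and 0.042 with detection on both arrays. Leaving out each array gave ranges across zero of -1.16 to 0.54 for Crhr1, -0.19 to 0.21 for Sgk1, -0.78 to 0.56 for Dusp16, -0.0024 to 1.61 for Dnajb9, -0.20 to 0.58 for Neurod1, -0.12 to 1.79 for Fshb, -0.13 to 0.40 for Fkbp5, -0.39 to 0.064 for Avpr1b and -0.81 to 0.18 for Rplp0. The probe standing for a gene could differ between settings. The Crhr1 values of 0.055 and 0.042 are those of another probe than the one giving -0.50. The latter was detected on only 2 of 12 arrays, so leaving out either of these also changed the probe. Dusp16 also has 2 probes that passed the detection filter, giving -0.65 and 0.43. The cause of the other changes was not tested. With 2 arrays per group, small differences and probes near background were not resolved.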

Other observations

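A few genes differed strongly between the 2 wild-type control arrays. Sparcl1, chosen after its values were seen like the others here, read 5.83 and 8.05 log2 on control replicates 1 and 2, 5.01 and 6.71 at 1 h and 7.27 and 7.52 at 3 h. Stmn1 read 6.67 and 8.57 in controls, 6.39 and 8.40 at 1 h and 9.44 and 8.71 at 3 h. Ntrk2 read 5.60 and 7.40, 5.49 and 6.85, and 8.35 and 7.35. Fshb, the follicle-stimulating hormone subunit, read 9.57 and 11.49, 9.67 and 11.22, and 11.71 and 11.02. These genes were low on replicate 1 of both the control and the 1 h group and not on replicate 1 at 3 h.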
